A study of Homo sapiens with 6 samples.

Results

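The 9 membrane genes described here were measured in HL-60, an established suspension line from a human acute myeloid leukaemia. They are the adhesion genes CADM1, CLMP and CDH1, the receptor gene EPHB2, the sushi-repeat gene SRPX, the membrane protein gene TMEM255A, the transporter gene SLCO2B1, the channel gene KCNMA1 and the pump subunit gene ATP1B1. They are 9 of the 58302 genes in the count tables, and were chosen by their measured counts in these same libraries: adhesion, receptor, transporter and channel genes with very few counts with a control hairpin and clear counts with a hairpin against OSGEP. The comparison of knockdown with control is therefore a description for these 9, and carries no test. RNA was sequenced from 3 HL-60 libraries that carry an shRNA against OSGEP, with the genotype label OSGEP knockdown, and from 3 that carry a control shRNA, with the genotype label WT. All cells were grown in medium with 20% fetal bovine serum. No label says how many hairpins against OSGEP were used, whether cells were cloned, or whether libraries of 1 group came from separate cultures, so the spread given here may be technical.

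Adhesion molecules, receptors, channels and pumps of the plasma membrane set what a cell holds on to, what it senses and which ions and solutes it takes up. CADM1 and CLMP are adhesion proteins of the immunoglobulin superfamily, CDH1 encodes the calcium-dependent adhesion protein E-cadherin, and EPHB2 is a receptor tyrosine kinase that binds ephrins on neighbouring cells. SLCO2B1 takes up organic anions, KCNMA1 forms the pore of the large-conductance potassium channel opened by calcium and voltage, and ATP1B1 is a beta subunit of the sodium pump. OSGEP, the targeted gene, encodes the catalytic subunit of the complex that makes the t6A modification of tRNA.

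Library totals ran from 8326982 to 10157091 counts. Library sizes scaled by TMM ran from 8125440 in control 3 to 10816430 in knockdown 2, so 1 count was worth more in control 3 than in knockdown 2. OSGEP itself had 203, 250 and 176 counts in knockdown libraries 1 to 3, against 476, 532 and 625 in control libraries 1 to 3, and no knockdown library reached a control library (log2 fold change -1.47, SE 0.21, edgeR adjusted p = 0.000228). Markers of the HL-60 stage were present. The 9 promyelocyte genes summed to 3030 to 3194 CPM (counts scaled by TMM to a common library size) in the controls and to 1199 to 1266 CPM in the knockdown, where 5 of the 9 fell, against 5.56% of the 14018 tested genes. Of 12 macrophage markers, 5 could be tested, of which 4 rose, against 5.19% of tested genes, and MARCO fell, and all 12 summed to 414 to 462 CPM in the controls and 1881 to 2499 CPM in the knockdown. The part of these shifts in the results below was not tested.

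Near silence in the controls held for most of the 9 but not all. CLMP, EPHB2, SRPX, TMEM255A, SLCO2B1 and KCNMA1 had at most 5 counts in any control library. CADM1 had 12 to 48. CDH1, at 28 to 43 control counts, and ATP1B1, at 156 to 230, were expressed in every control library. ATP1B1 stood above 63.1% of all tested genes in the controls when levels were set per length.

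All 9 passed the filter on low counts. The 6 near-silent ones passed through their knockdown counts alone and so had to differ. All 9 were called higher by edgeR, against 5.19% of the 14018 tested genes called higher and 5.56% called lower, and in all 9 every knockdown library lay above every control library, against 13.3% of tested genes higher in this way and 28.9% in either direction. These counts follow from how the genes were picked.

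Promoter sequences from RefSeq (GRCh38.p14) were at hand for 6 of the 9: EPHB2, ATP1B1, KCNMA1, SLCO2B1, SRPX and TMEM255A, in 9 windows of 250 bases directly upstream of an annotated start. They are shown for their base composition, which differed widely. CpG dinucleotides numbered 46 in the window of the outer KCNMA1 start, 42 and 41 in the nearly identical windows of EPHB2 and 35 in that of ATP1B1. SRPX had 15, TMEM255A 8 and the windows of SLCO2B1 2 and 5, against a median of 11 over 35116 windows. The inner start of KCNMA1 had 1. Capitals below mark letters of the motifs searched, on either strand.
KCNMA1, outer start, chr10:77637809-77638058, minus strand: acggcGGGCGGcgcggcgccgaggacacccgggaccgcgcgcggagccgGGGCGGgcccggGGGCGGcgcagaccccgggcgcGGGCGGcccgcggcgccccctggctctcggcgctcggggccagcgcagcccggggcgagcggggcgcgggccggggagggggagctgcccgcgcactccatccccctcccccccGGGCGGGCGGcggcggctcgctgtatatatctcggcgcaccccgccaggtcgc
EPHB2, chr1:22710588-22710837, plus strand: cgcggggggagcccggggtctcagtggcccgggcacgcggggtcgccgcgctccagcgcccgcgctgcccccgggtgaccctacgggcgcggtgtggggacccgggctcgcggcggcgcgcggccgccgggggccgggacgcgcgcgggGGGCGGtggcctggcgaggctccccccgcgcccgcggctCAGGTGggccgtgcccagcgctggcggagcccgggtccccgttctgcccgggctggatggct
ATP1B1, chr1:169106440-169106689, plus strand: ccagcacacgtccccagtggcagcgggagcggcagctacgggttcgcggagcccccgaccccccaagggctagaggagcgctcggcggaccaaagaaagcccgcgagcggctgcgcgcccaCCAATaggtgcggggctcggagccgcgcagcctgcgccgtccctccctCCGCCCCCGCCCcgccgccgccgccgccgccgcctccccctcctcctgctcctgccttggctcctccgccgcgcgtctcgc
TMEM255A, chrX:120311462-120311711, minus strand: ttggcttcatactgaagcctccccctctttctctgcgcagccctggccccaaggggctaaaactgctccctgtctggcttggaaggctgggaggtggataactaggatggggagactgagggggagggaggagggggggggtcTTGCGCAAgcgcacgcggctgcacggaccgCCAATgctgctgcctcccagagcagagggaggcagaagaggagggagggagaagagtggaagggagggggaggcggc
KCNMA1, inner start, chr10:77350762-77351011, minus strand: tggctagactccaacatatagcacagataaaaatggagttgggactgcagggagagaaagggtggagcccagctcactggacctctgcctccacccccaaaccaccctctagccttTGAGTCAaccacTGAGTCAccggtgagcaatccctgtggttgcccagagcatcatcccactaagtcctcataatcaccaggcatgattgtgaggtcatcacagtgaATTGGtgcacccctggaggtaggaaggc
SLCO2B1, chr11:75150857-75151106, plus strand: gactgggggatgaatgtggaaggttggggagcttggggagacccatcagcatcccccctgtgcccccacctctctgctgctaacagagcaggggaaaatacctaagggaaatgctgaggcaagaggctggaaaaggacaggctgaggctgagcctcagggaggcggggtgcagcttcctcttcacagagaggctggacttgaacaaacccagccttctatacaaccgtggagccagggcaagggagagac

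Of 10 motifs searched, none was found in all 6 genes. The CCAAT box (CCAAT) was found in 5 of the 9 windows, which belong to 5 of the genes, and in 32.0% of all windows. The GC box (GGGCGG) was also found in 5 of the 9 windows, which belong to 4 of the genes, and in 42.6% of all windows. The EPHB2 windows, chr1:22710588-22710837 and chr1:22710589-22710838, are nearly the same sequence, so the same GC box is counted in both. The window of the outer KCNMA1 start held 6 GC boxes, of which those nearest the start overlap each other. The AP-1 motif (TGANTCA) was found only at the inner start of KCNMA1, with 2 copies 134 and 122 bases upstream, and in 6.57% of all windows. The C/EBP palindrome (TTGCGCAA) was found only in TMEM255A, 107 bases upstream, and in 0.131% of all windows. The E-box read by ZEB and SNAI repressors (CACCTG) was found in EPHB2 alone, on the opposite strand 62 bases upstream, and in 17.5% of all windows. The TATA box (TATAAA), the E-box CACGTG, the cyclic AMP element (TGACGTCA), the ATF4-C/EBP composite (TGATGCAA) and the antioxidant core (TGACNNNGC) had no match in these windows, and were found in 10.7%, 6.34%, 1.65%, 0.772% and 10.9% of all windows. The first SLCO2B1 window, the last shown, held none of the 10 motifs.

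CADM1 (chr11:115169218-115504957, minus strand) had the widest absolute gap among the adhesion genes. It had 1767, 2026 and 1777 counts in knockdown libraries 1 to 3, against 48, 15 and 12 in control libraries 1 to 3. Control 1 was the high one of its group, at 4.95 CPM against 1.53 and 1.48 CPM, while the knockdown libraries lay within 184 to 211 CPM. The log2 fold change was 6.16 (SE 0.31), and 6.99 without control 1.

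CLMP, a relative of the coxsackievirus and adenovirus receptor CXADR (chr11:123069865-123195281, minus strand), had 263, 144 and 188 counts in the knockdown libraries and 5, 0 and 3 in the controls. The knockdown mean was 21.0 ± 7.15 CPM (SD, n = 3), with knockdown 1 the highest and knockdown 2 the lowest. Its log2 fold change of 6.11 (SE 0.64) became 6.83 without control 1 and 5.51 without control 2.

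CDH1 (chr16:68737225-68835548, plus strand) had the smallest step of the 9. It had 127, 108 and 102 counts in the knockdown libraries and 37, 43 and 28 in the controls, or 11.8 ± 1.66 against 3.89 ± 0.480 CPM (SD, n = 3 each). It was already read in every control library, and the groups did not overlap but were set apart by a smaller step, a log2 fold change of 1.59 (SE 0.42). The edgeR call was lost in 6 of 12 alternative fits: with the replicate number as a block and without knockdown 1, knockdown 3 or any 1 control.

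EPHB2 (chr1:22710839-22921500, plus strand) had the steepest ratio. Its counts were 193, 137 and 119 in the knockdown libraries and 0, 3 and 0 in the controls. All 3 control counts came from control 2. The ratio of the summed counts, corrected for depth, was 143 (exact 95% interval 48.7 to 698, for counting error only). The fitted log2 fold change rests on those 3 counts and moved from 7.01 to 10.19 without control 2, where no control count is left and the fitted value is no bound.

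SRPX and TMEM255A both lie on the X chromosome, at chrX:38149336-38220924 and chrX:120258650-120311556, both on the minus strand. SRPX had 158, 211 and 146 counts in the knockdown libraries and 5, 0 and 1 in the controls. TMEM255A had 144, 116 and 76 counts in the knockdown libraries and 5, 1 and 0 in the controls. For each gene 5 of 6 control counts fell in control 1. The log2 fold changes of 6.28 (SE 0.67) for SRPX and 5.67 (SE 0.79) for TMEM255A became 7.99 and 7.40 without that library, and SRPX stood at 5.68 without control 2.

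SLCO2B1 (chr11:75100563-75206549, plus strand) had 178, 155 and 103 counts in the knockdown libraries and 0, 2 and 4 in the controls. Here control 1 was the empty library, in contrast to CADM1, SRPX and TMEM255A. The log2 fold change was 6.01 (SE 0.70), with 5.41 without control 1 and 7.02 without control 3. KCNMA1 (chr10:76869601-77638369, minus strand) had 135, 119 and 41 counts in the knockdown libraries and 1, 3 and 1 in the controls. Knockdown 3 was the low one of its group, at 4.86 CPM, yet lay above every control. The log2 fold change was 5.69 (SE 0.79) and became 6.31 without control 2, and limma-voom did not call the gene.

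ATP1B1 (chr1:169105697-169132722, plus strand) was the most abundant of the 9 in both groups. It had 2801, 2746 and 2152 counts in the knockdown libraries and 230, 156 and 209 in the controls, or 267 ± 21.8 against 21.8 ± 5.16 CPM (SD, n = 3 each). The groups were far apart. The coefficient of variation was 8.15% over the knockdown libraries but 23.7% over the controls, where the median of all tested genes was 19.6%. The log2 fold change of 3.62 (SE 0.18) stayed between 3.43 and 3.75 in the 12 alternative fits.

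**Figure D1:**
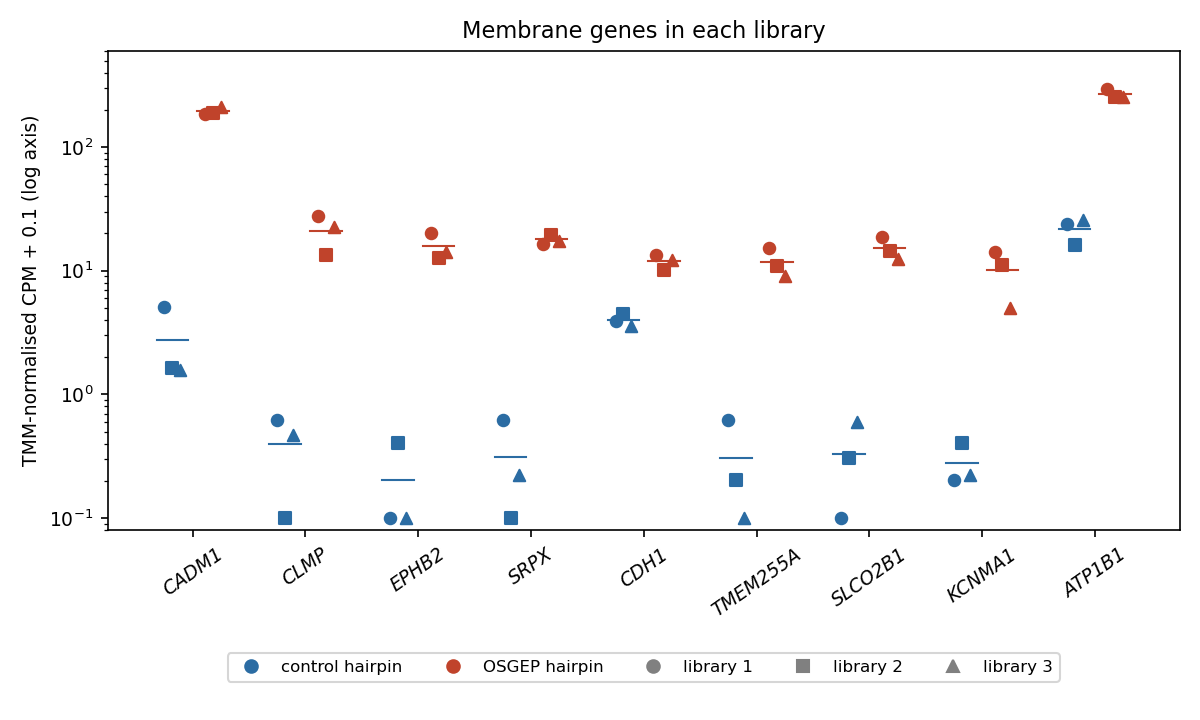
TMM-normalised CPM plus 0.1 on a log axis for each of the 9 membrane genes, with 1 point per library (blue control hairpin, red OSGEP hairpin, marker shape for library number) and a line at each group mean. In every gene the 3 red points lie above the 3 blue ones, and ATP1B1 and CDH1 start from the higher control levels of 21.8 and 3.89 CPM.

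The 9 genes did not vary alike among replicates. Knockdown 1 was the highest of its group for 7 of the 9, the exceptions being CADM1, highest in knockdown 3, and SRPX, highest in knockdown 2. The coefficient of variation over the knockdown libraries was 7.45% for CADM1, 8.15% for ATP1B1 and 8.79% for SRPX, and 34.02% for CLMP and 47.0% for KCNMA1. The median over all tested genes was 23.98%. Counting error alone would give 2.32% for CADM1, 1.97% for ATP1B1, 7.63% for SRPX, 7.10% for CLMP and 10.1% for KCNMA1. The spread of each was wider than counting, for SRPX only slightly. In the controls, a library at 0 counts allows up to 3 counts, which is 0.307 to 0.369 CPM.

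Levels were set per length as TPM, in which counts are divided by the exon length of each gene and scaled to a common total. ATP1B1 led in the knockdown at 162 ± 8.97 TPM (SD, n = 3), followed by CADM1 at 31.6 ± 2.57, SRPX at 16.1 ± 2.33, CLMP at 7.31 ± 2.16 and TMEM255A at 5.37 ± 1.29 TPM. CDH1 stood at 3.40 ± 0.303, SLCO2B1 at 2.60 ± 0.502, EPHB2 at 2.23 ± 0.466 and KCNMA1 at 0.502 ± 0.231 TPM. In this order the libraries of CLMP and TMEM255A overlapped, as did those of SLCO2B1 and EPHB2, and the lowest library of CDH1 and the highest of SLCO2B1 both stood at 3.08 TPM. The other neighbours in the order were separate. In the controls the order began with ATP1B1 at 12.2 ± 2.82, CDH1 at 1.05 ± 0.137 and CADM1 at 0.402 ± 0.304 TPM, and the remaining 6 had means of at most 0.179 TPM. The 35644 exon bases counted for KCNMA1 include every annotated isoform, so its level per length is a low estimate. Exon bases were counted in this way for all 9, with 12516 for EPHB2, 11017 for CADM1 and 10351 for SLCO2B1. The others ran from 1987 for SRPX to 6177 for CDH1, and the order per length depends on these lengths. In RNA from whole cultures, more cells with a transcript and more transcript per cell cannot be told apart.

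To see how common the pattern was, all genes with at most 10 counts in every control library and at least 50 in every knockdown library were counted. There were 16, of which 15 are protein-coding and 5 are among the 9: CLMP, SRPX, EPHB2, SLCO2B1 and TMEM255A. KCNMA1 missed it through the 41 counts of knockdown 3, and CADM1, CDH1 and ATP1B1 through their control counts. The mirror pattern, at most 10 counts in every knockdown library and at least 50 in every control, was met by 3 genes: the metallothionein MT1G, the adhesion gene NEGR1 and the pseudogene SNRPEP2. The 16 became 26 without knockdown 3, and the 3 became 5 without any 1 knockdown library, control 1 or control 3.

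The other 11 genes with the pattern included several more membrane proteins. CD36, a scavenger receptor, had 1139, 1021 and 695 counts in the knockdown libraries and 9, 8 and 5 in the controls. C5AR1, the receptor for the complement fragment C5a, had 58, 147 and 147 against 2, 5 and 3. RTN4R, the Nogo receptor, had 70, 66 and 78 against 0, 6 and 0. Like EPHB2, RTN4R had all its control counts in control 2. ADTRP, a membrane hydrolase, had 105, 51 and 57 against 0, 1 and 1, a ratio of 102 (exact 95% interval 27.9 to 847, for counting error only), and the drug exporter ABCC3 had 58, 50 and 90 against 6, 1 and 1. The others were the coactivator PPARGC1A, the transcription factor EGR2, the secreted proteoglycan TSKU, the epimerase DSE, TPD52L1 and the snRNA pseudogene RNU6-37P. ABCC3, the eleventh, was named beyond the rule for named genes.

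**Figure D2:**
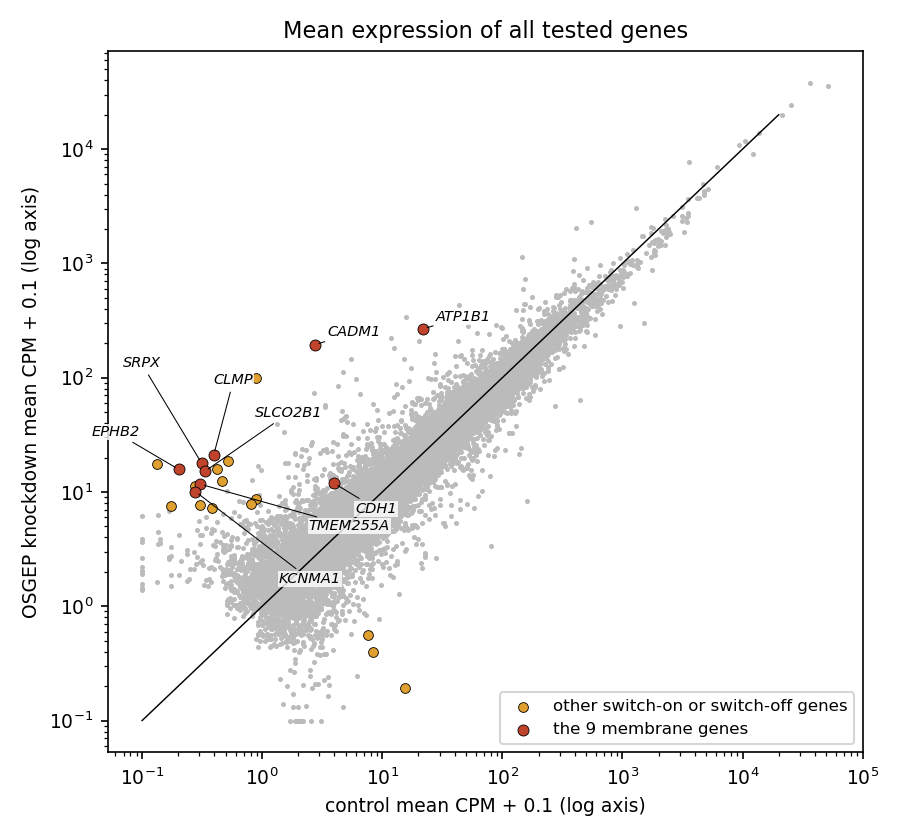
Mean CPM plus 0.1 in the controls (horizontal, log axis) against the OSGEP knockdown (vertical, log axis) for the 14018 tested genes in grey, with the 9 membrane genes in red and the other genes of the switch-on and switch-off patterns in orange. Of the red points, 6 lie at the far left with the orange switch-on genes, whereas CADM1, ATP1B1 and CDH1 lie further right and 3 orange genes lie below the line.

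Distance over the 6 libraries on the log2(CPM + 0.5) scale was taken to tested genes outside the 9 with no clone-type or LINC name. The 9 themselves were left out, so another of the 9 can lie nearer than the gene named. Among the genes compared, the nearest to ATP1B1 was the kinase gene SGK1 (0.69). It had 2289, 2092 and 1616 counts in the knockdown libraries and 231, 134 and 189 in the controls. The nearest to CADM1 was the chemokine gene CCL2 (1.97), with 1284, 1624 and 1306 against 74, 51 and 26 counts. TSKU was nearest to both EPHB2 (0.82) and SLCO2B1 (0.89), and RNU6-37P to both KCNMA1 (0.92) and TMEM255A (1.14). TPD52L1 was nearest to CLMP (1.47), PPARGC1A to SRPX (1.12) and RCN3 to CDH1 (0.60). The distance includes the step between groups, which the 9 were chosen for.

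The relatives and binding partners of the 9, and the transcription factors that regulate CDH1, were not used to pick them and could be tested. The lists were, however, drawn up by hand with earlier results of these data known, so their calls are not independent of these data. Of 142 such genes in 9 lists, 59 passed the filter on low counts. Of these, 4 rose and 3 fell, which is 11.9% called against 10.8% of all tested genes. The CDH1 regulators, 11 of the 59, gave 1 of those that rose and 2 of those that fell. The median log2 fold change of all 59 was -0.09, against 0.01 over all tested genes. Without control 2, 4 of the 59 were called.

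The CADM and nectin list held 16 genes, of which 8 were tested, 1 rose and 0 fell (median -0.13). An unadjusted edgeR p under 0.05 was met by 3 of the 8, of which 1 was higher in the knockdown. The gene that rose was EPB41L3, which encodes a band 4.1 protein that binds the cytoplasmic tail of CADM1. It stood at 104, 106 and 101 CPM in the knockdown libraries and 49.3, 43.0 and 39.9 CPM in the controls. The groups were well apart (log2 fold change 1.23, SE 0.15, edgeR adjusted p = 4.78e-05). NECTIN1, NECTIN2 and the poliovirus receptor gene PVR, relatives that mediate contact between cells, were not called, at log2 fold changes of -0.92, -0.16 and -0.38.

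Of 13 genes of the CXADR and junctional adhesion molecule list, 6 were tested, 0 rose and 1 fell (median -0.65). An unadjusted edgeR p under 0.05 was met by 2 of the 6, of which 1 was higher in the knockdown. CXADR itself was not called and stood at 1.57 ± 1.62 CPM in the knockdown against 2.64 ± 0.795 CPM in the control (SD, n = 3 each).

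No other Eph receptor and no ephrin was called by edgeR. Of 21 genes, 7 were tested, and 0 had an unadjusted p under 0.05 (median -0.32), while DESeq2 and limma-voom also called 0. The most abundant were EFNA3, at 1.80 ± 2.26 CPM in the knockdown against 5.46 ± 2.12 in the control, and EPHB6, at 3.04 ± 3.41 and 3.21 ± 1.93 CPM (SD, n = 3 each). These are low levels with wide spread, at which a change would be hard to detect. The B-type ephrins EFNB1 and EFNB2, ligands of EPHB2, were tested at log2 fold changes of 0.23 and -0.71.

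Among 20 cadherins and catenins, 8 were tested and 0 were called by edgeR, while 3 had an unadjusted p under 0.05 (median -0.09), and DESeq2 called 1 and limma-voom 0. The gene called by DESeq2 was CTNND1, which encodes p120 catenin, a partner of the E-cadherin tail, at 23.8 ± 4.94 CPM in the knockdown against 12.3 ± 3.34 in the control (SD, n = 3 each; edgeR adjusted p = 0.0538). Beta-catenin, CTNNB1, had a log2 fold change of 0.33 (edgeR adjusted p = 0.490), and CTNNAL1 one of -0.51 (edgeR adjusted p = 0.0999). CTNND1 was singled out after its values were seen.

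Of 19 transcription factors that regulate CDH1 in epithelia, 11 were tested, 1 rose, 2 fell and 8 were not called (median -0.06, or 0.01 with library size alone). Over all tested genes 5.19% rose and 5.56% fell. ZEB2, a repressor of CDH1, fell from 298 ± 7.31 to 202 ± 11.6 CPM (SD, n = 3 each; log2 fold change -0.56, SE 0.11, edgeR adjusted p = 0.00251). TCF12, an E-box factor, fell from 135 ± 5.55 to 81.8 ± 2.38 CPM (SD, n = 3 each; -0.73, SE 0.13, edgeR adjusted p = 0.00143). SNAI3, a member of the Snail family of repressors, rose from 2, 1 and 0 counts in the controls to 39, 54 and 27 in the knockdown, a ratio of 38.3 (exact 95% interval 12.8 to 188, for counting error only; edgeR adjusted p = 0.0101). SNAI3 started from at most 2 counts in any control library. Its call was lost with limma-voom, without control 2 and without control 3.

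E-cadherin is also an epithelial marker. Of 12 other epithelial markers, 6 were tested and 0 were called by edgeR, while 1 had an unadjusted p under 0.05, and DESeq2 called 1 and limma-voom 0. The most abundant was the keratin KRT8, at 27.4, 10.4 and 19.5 CPM in the knockdown against 8.24, 6.85 and 9.85 CPM in the controls (edgeR adjusted p = 0.0525). The list summed to 22.2 to 57.9 CPM in the knockdown and 22.9 to 29.7 CPM in the controls, so the groups overlapped. Of 10 mesenchymal markers, 3 were tested and COL6A3 rose, at 18.5, 11.6 and 10.1 CPM in the knockdown against 0.721, 0.102 and 3.82 CPM in the controls (log2 fold change 3.14, SE 0.76, edgeR adjusted p = 0.0124), while THY1 was at 0 in all libraries and the list summed to 19.2 to 23.4 and 7.73 to 11.6 CPM. Endothelial, erythroid and megakaryocyte markers summed to at most 2.68 CPM in any library, lymphoid ones to at most 9.73 CPM and mast cell ones to at most 5.01 CPM. Too few of these could be tested for a count of calls to say anything: 0 of 6 endothelial, 0 of 6 erythroid, 1 of 5 megakaryocyte, 1 of 6 lymphoid and 2 of 5 mast cell markers passed the filter.

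The organic anion transporter family gave no other call. Of 10 relatives of SLCO2B1, 3 were tested, and 0 were called by edgeR, DESeq2 or limma-voom, while 1 had an unadjusted p under 0.05 (median 0.92). SLCO4A1 stood at 6.41 ± 2.17 CPM in the knockdown against 11.9 ± 1.53 in the control, and SLCO3A1 at 7.69 ± 1.28 and 3.69 ± 1.24 CPM (SD, n = 3 each), at log2 fold changes of -0.89 and 1.06.

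Among 24 potassium channel genes and subunits, 11 were tested, 1 rose and 0 fell (median -0.17). An unadjusted edgeR p under 0.05 was met by 5 of the 11, of which 4 were higher in the knockdown. The inward rectifier KCNJ2 rose, at 2.19, 13.5 and 7.12 CPM in the knockdown libraries and 0.618, 0.716 and 1.23 CPM in the controls (log2 fold change 3.15, SE 0.78, edgeR adjusted p = 0.0152). Its knockdown libraries were uneven, and the call was lost with limma-voom, with the replicate number as a block and without knockdown 2, knockdown 3, control 1 or control 2. KCNMB1, a beta subunit of the channel that KCNMA1 forms, was not called (-0.61, edgeR adjusted p = 0.469), and KCNMB2 and the gamma subunits LRRC26, LRRC38, LRRC52 and LRRC55 were at 0 in all 6 libraries.

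Of 17 subunits and relatives of ATP1B1, 4 were tested (median 0.40) and 1 rose, the regulator FXYD5, at 214, 212 and 205 CPM in the knockdown against 145, 137 and 153 CPM in the controls (log2 fold change 0.53, SE 0.11, edgeR adjusted p = 0.00571). That call was lost without control 2, at 0.49. An unadjusted edgeR p under 0.05 was met by 2 of the 4, each higher in the knockdown. The other abundant beta subunit, ATP1B3, missed the threshold, at 183 ± 6.42 CPM in the knockdown against 152 ± 8.81 in the control (SD, n = 3 each; 0.26, edgeR adjusted p = 0.197). Per length, ATP1B1 made up 57.7%, 55.8% and 54.4% of the TPM of the beta subunits ATP1B1, ATP1B2 and ATP1B3 in knockdown libraries 1 to 3, against 11.6%, 8.10% and 13.6% in control libraries 1 to 3. ATP1B1 was thus the leading beta subunit transcript in every knockdown library and ATP1B3 in every control. This share follows from how ATP1B1 was picked and carries no test.

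TMEM255B, the relative of TMEM255A, stood at 7.99 ± 0.522 CPM in the knockdown against 6.48 ± 0.807 in the control (SD, n = 3 each; log2 fold change 0.30, edgeR adjusted p = 0.759), and was not called. SRPX2, the relative of SRPX, did not pass the filter on low counts.

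**Figure D3:**
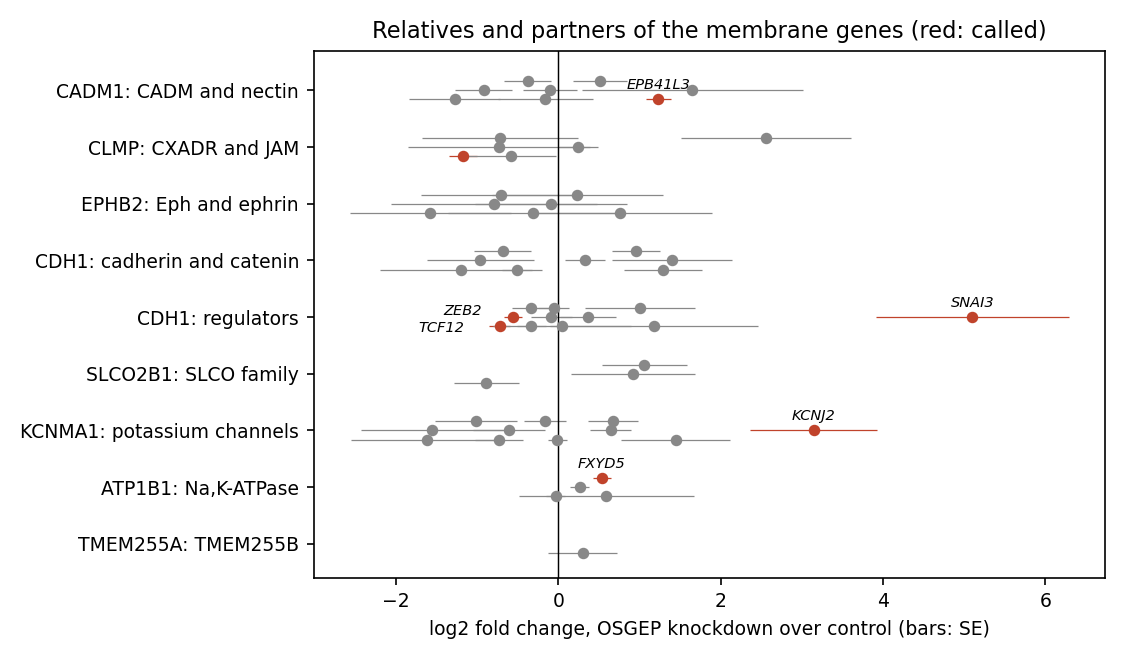
Log2 fold change of OSGEP knockdown over control, with its standard error, for each tested relative, partner or CDH1 regulator. Rows are named for the membrane gene they belong to (SRPX has no tested relative). Red marks the 7 genes called by edgeR, of which 6 are named, and grey the others; grey genes lie on both sides of 0, and SNAI3 and KCNJ2 are the only ones called beyond 2.

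The position of the 9 genes was not used to pick them either. Within 200 kb of a member on the same chromosome, GENCODE release 29 lists 136 other genes, of which 22 were tested. None of the 22 was called higher by edgeR, DESeq2 or limma-voom, against 5.19% of all tested genes called higher by edgeR, and 1 of the 22 was higher at an unadjusted p under 0.05. Their log2 fold changes ran from -0.55 to 1.41, with a median of 0.04. Within 500 kb, 66 genes were tested, of which 2 were called higher and 4 lower by edgeR. With so few genes tested within 200 kb, a count of 0 is near what the background share gives. The rest of the 136 did not pass the filter on low counts. Among these, C1QC, 62729 bases from EPHB2, had 21, 9 and 4 counts in the knockdown libraries and 0, 0 and 1 in the controls. Near CLMP, JHY had 1, 16 and 2 against 1, 1 and 0, and the pseudogene RPL34P23 had 0, 0 and 0 against 2, 2 and 3. C1QC, JHY and RPL34P23 were singled out after their values were seen.

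Several neighbours lay close to a member and were well expressed. HSPA8, a constitutive chaperone gene 6635 bases from CLMP on the same strand, stood at 2434 ± 140 CPM in the knockdown against 2272 ± 57.2 in the control (SD, n = 3 each; log2 fold change 0.10, edgeR adjusted p = 0.508). ZBTB33, which lies 252 bases from TMEM255A on the other strand and encodes the p120-catenin partner Kaiso, stood at 46.9 ± 5.48 and 66.6 ± 12.9 CPM (SD, n = 3 each; -0.51, edgeR adjusted p = 0.0980). TANGO6, 8056 bases from CDH1, had a log2 fold change of -0.03. Next to each of these genes, the membrane gene was higher in the knockdown and the neighbour was not called. The 1 called neighbour was ARRB1, which encodes beta-arrestin 1, 57633 bases from SLCO2B1 and lower in the knockdown (-0.55, SE 0.17, edgeR adjusted p = 0.0461). That call was lost in 9 of 12 alternative fits. HSPA8, ZBTB33 and TANGO6 were singled out after their values were seen.

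Overlapping genes could share reads with a member, since the kit marks strand but no source used here gives the strand setting of the counting. Of 22 genes that overlap one of the 9, 15 had 0 counts in all libraries and 2 were tested. NME7, on the strand opposite ATP1B1, had 17, 63 and 51 counts in the knockdown libraries and 28, 58 and 48 in the controls, fewer than ATP1B1 in every library. FTLP14, a ferritin pseudogene inside CDH1 on the same strand, had 82, 61 and 79 counts in the knockdown and 29, 33 and 62 in the controls (log2 fold change 0.75, edgeR adjusted p = 0.447). As a near-copy of a ferritin gene its count is uncertain, and the part of shared reads in the CDH1 counts was not tested.

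**Figure D4:**
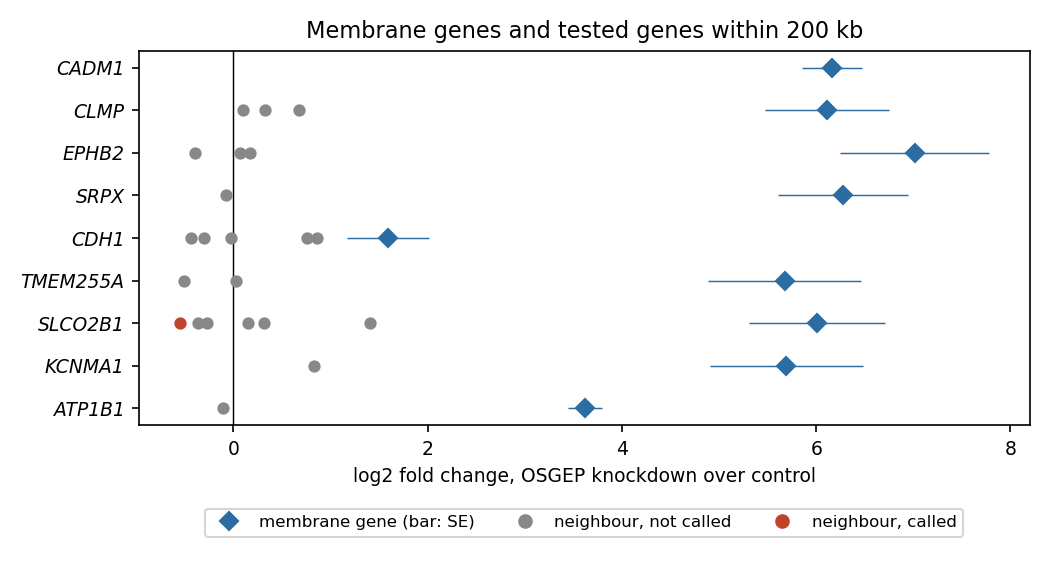
Log2 fold change of OSGEP knockdown over control for each membrane gene (blue diamond, bar for its standard error) and for the tested genes within 200 kb of it (grey, or red where called), 1 row per membrane gene. The neighbours lie between -0.55 and 1.41, and CADM1 has no tested neighbour.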

How the data were processed

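The deposited values are raw read counts for each Ensembl gene, in a separate table for each of the 6 libraries. Per the labels' protocols, a stranded mRNA kit was used with paired-end reads of 150 bp. HISAT2 2.1.0, featureCounts 1.6.3 and the builds GRCh38 and GRCm38 are listed in the submitters' processing notes without roles. For the annotation, strand setting and multiply aligned reads, no source used here gives the choice made. Symbols came from a table of current names (57532 identifiers) and positions and exon lengths from GENCODE release 29 (58039 identifiers). The 9 genes and all lists were chosen with earlier results of these data known.

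Here, edgeR 4.0.16 in R 4.3.3 was run with TMM scaling, filterByExpr (minimum count 10, minimum total 15) and its quasi-likelihood F test with group as the only term, two-sided. It tested 14018 genes, with Benjamini-Hochberg adjustment over all of them and calls at an adjusted p under 0.05. Each standard error is the log2 fold change divided by the root of its F. The edgeR, DESeq2 and limma-voom fits were run on simulated data, with smaller steps between groups than those of the near-silent genes. The pattern, neighbour and motif steps were not simulated. Alternatives were RLE scaling, library size alone, no filter, DESeq2 1.42.0, voom of limma 3.58.1, the replicate number as a block and each library left out. Named genes were OSGEP, the 9, up to 3 called genes of each partner list (or the 2 most abundant), called neighbours and 10 further genes of the switch-on pattern. The gene outside the 9 nearest each of them in pattern and the most abundant markers were also named. Where a gene outside this rule is named for its role, it was chosen by hand: the nectins, PVR, CXADR, the B-type ephrins, KCNMB1 and ATP1B3, as well as those named as such in the text. Some marker genes the rule picks are given only through the sums of their lists. Some genes that were counted in the lists are not reported here by name.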

Additional observations from a re-analysis of the deposited data

How the results depend on the processing

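The number of genes called was 1507 and ran from 870 (without control 3) to 1624 (without knockdown 1) when 1 library was left out, with 890 without control 2 and 941 without knockdown 3. The 7 called genes of the relative, partner and CDH1 regulator lists became 4 (without control 2) to 8 in those fits. With the replicate number as a block 6 were called, beside 1072 over all genes. Same-numbered libraries did not deviate together (correlations of -0.13, -0.06 and -0.04). Whether they shared a culture or a day of handling cannot be read from these correlations. The 1 neighbour call became 0 with RLE scaling, library size alone, no filter or the replicate block, ran from 0 to 2 with 1 library left out, and became 6 of 66 tested (2 higher, 4 lower) in a window of 500 kb. The 16 switch-on genes became 9 with at most 5 counts in the low group, 27 with at most 20 and 8 with at least 100 in the high group, and ran from 18 to 26 with 1 library left out. The 3 switch-off genes became 5 with at most 20 counts in the low group and 1 with at least 100 in the high group, and ran from 3 to 5 with 1 library left out. All 9 membrane genes kept their direction in each of 12 alternative fits, and 101 of those 108 values lay within 1 standard error of the main value. Few control counts limit the size of every ratio of the 6 near-silent genes. The cause of these shifts was not tested beyond the fewer samples or other limits each setting names.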

Other observations

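The few control counts of the membrane genes were not spread evenly over the control libraries. For the 6 near-silent genes, counting error alone would give a coefficient of variation of 61.2% (CLMP) to 100% (EPHB2) over the controls. The observed values ran from 63.2% (KCNMA1) to 173% (EPHB2), and whether they go beyond counting was not tested. As a percentage of the mean knockdown CPM, control 1 held 2.55% for CADM1, 2.45% for CLMP, 2.90% for SRPX and 4.45% for TMEM255A, but had 0 counts for EPHB2 and SLCO2B1. Control 2 held 1.96% for EPHB2, 1.36% for SLCO2B1 and 3.07% for KCNMA1, with 0 counts for CLMP and SRPX, and control 3 held 3.27% for SLCO2B1 and 1.76% for CLMP, with 0 counts for EPHB2 and TMEM255A. For CDH1 the 3 controls held 32.4%, 37.3% and 29.3%, and for ATP1B1 8.87%, 5.97% and 9.63%.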
